A study of Fragaria vesca with 12 samples.

Results

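In strawberry fruit at 27 days post anthesis, the list of m6A peaks of the Fvalkbh10b mutant held 24868 regions, and 5137 of these (20.7%) overlapped no wild-type (WT) peak by even 1 bp on the same chromosome and strand. These 5137 regions, in 4085 genes, are the Fvalkbh10b-only peaks described here. They were chosen by the presence of a peak in one list and its absence from the other, so their absence from WT is how they were found and not a result. The other 19731 mutant peaks were shared with WT, and 4243 of 23966 WT peaks (17.7%) had no mutant counterpart. Membership says that no WT peak was listed at that place, not that WT transcripts carried no m6A there.

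The 2 genotypes of the diploid strawberry Fragaria vesca were the Fvalkbh10b mutant and WT, each with 3 biological replicates of input RNA and of RNA precipitated with an antibody against m6A (IP), 12 libraries in all. The sources used here do not name the allele behind the Fvalkbh10b label, the background of the plants or any pooling of fruits. Input RNA was given as FPKM, fragment numbers divided by exon length and by library size, so levels of different genes could be compared per length. The IP libraries entered only through 1 peak list per genotype, made by the authors from the replicate experiments, so a peak has a single value per genotype and no spread.

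m6A is a methyl group on adenosines of mRNA. In Arabidopsis it is written by a methyltransferase complex built around MTA and MTB, bound by YTH domain proteins, and removed by AlkB family dioxygenases, of which ALKBH10B is one. In plant mRNA the mark is known to be concentrated around the stop codon and in the 3' UTR. In m6A-seq a peak is a stretch where fragments from the antibody-bound fraction exceed those of the input, and the log2 ratio of IP over input is its enrichment.

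Coding exons held more of the Fvalkbh10b-only peaks than any other location. Of the 5137 peaks, 2619 (51.0%) lay in coding exons, 1586 (30.9%) in 3' UTRs and 932 (18.1%) in 5' UTRs. Among the mutant peaks shared with WT, 24.6% lay in coding exons, 60.9% in 3' UTRs and 14.5% in 5' UTRs. Seen from each location, 35.0% of all coding exon peaks of the mutant had no WT counterpart, against 24.6% of 5' UTR peaks and 11.7% of 3' UTR peaks. The WT-only peaks had a like makeup, with 52.3% in coding exons, 26.7% in 3' UTRs and the rest in 5' UTRs. The share of mutant peaks without a WT counterpart was close on all 7 chromosomes, between 19.9% and 21.8%.

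The Fvalkbh10b-only peaks were weaker and shorter than the shared ones. Their median enrichment, a log2 value of the authors, was 1.52 (quartiles 1.14 and 2.42), against 2.60 for shared mutant peaks (1.67 and 3.38). Median length was 225 bp, against 525 bp, and 2408 (46.9%) were at most 200 bp long, against 16.3% of shared peaks. The difference held in each location. Fvalkbh10b-only peaks had medians of 2.58 in 3' UTRs, 1.31 in coding exons and 1.28 in 5' UTRs, against 3.12, 1.61 and 1.5 for shared peaks. Strong members existed as well: 648 (12.6%) had an enrichment of at least 3, against 36.7% of shared peaks. WT-only peaks had a median enrichment of 1.19 within their own list, and enrichments were not compared between the lists. Their median length was 200 bp, and 51.0% were at most 200 bp long. A short peak has less room to overlap a peak of the other list, so the rule itself favours short members. Since each list pools its replicates, these are descriptions with no test.

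**Figure D1:**
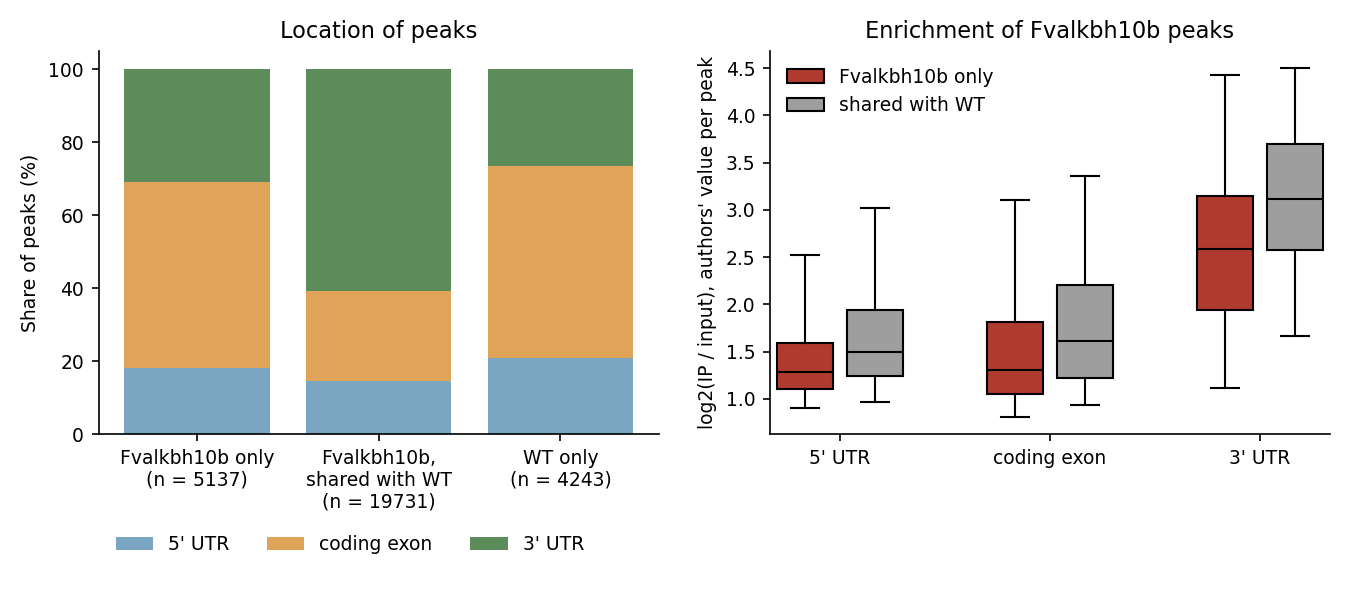
The left panel stacks the share of peaks (%) in 5' UTRs, coding exons and 3' UTRs for Fvalkbh10b-only peaks, mutant peaks shared with WT, and WT-only peaks; coding exons take 51.0%, 24.6% and 52.3%. The right panel shows the authors' log2 ratio of IP over input for Fvalkbh10b-only and shared mutant peaks in each location, with boxes for quartiles, lines for medians and whiskers from the 5th to the 95th percentile; the shared peaks have the higher median in each location.

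Position along the gene followed the location. The middle of a Fvalkbh10b-only peak lay at a median of 8.53% of the gene span from its 5' end for 5' UTR peaks, 50.0% for coding exon peaks and 89.3% for 3' UTR peaks. For shared mutant peaks these medians were 9.75%, 51.5% and 88.4%. Gene spans include introns, so these positions are genomic and not transcript positions.

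Most Fvalkbh10b-only peaks were additional peaks in a gene that already had a WT peak elsewhere. That was so for 3048 peaks (59.3%) in 2468 genes, while 2089 peaks (40.7%) lay in 1617 genes without any WT peak. In the first set the nearest WT peak of the gene was a median of 625 bp away (quartiles 200 and 1866 bp). The Fvalkbh10b-only peak lay on the 5' side of it in 1912 cases (62.7%) and on the 3' side in 1136. Of those on the 5' side, 1005 were in coding exons and 697 in 5' UTRs, and their median enrichment was 1.24. On the 3' side, 613 were in 3' UTRs, and the median enrichment was 1.87. The same split was not computed for WT-only peaks beside mutant peaks, so these shares of sides have no background. At the edge of the rule, 56 members directly abutted a WT peak (median enrichment 1.24) and 469 lay 1 to 100 bp from one (1.66). Just outside it, the 63 mutant peaks with the smallest overlap seen, 25 bp, had a median of 1.26, and the 1316 with at most 100 bp had 1.59.

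**Figure D2:**
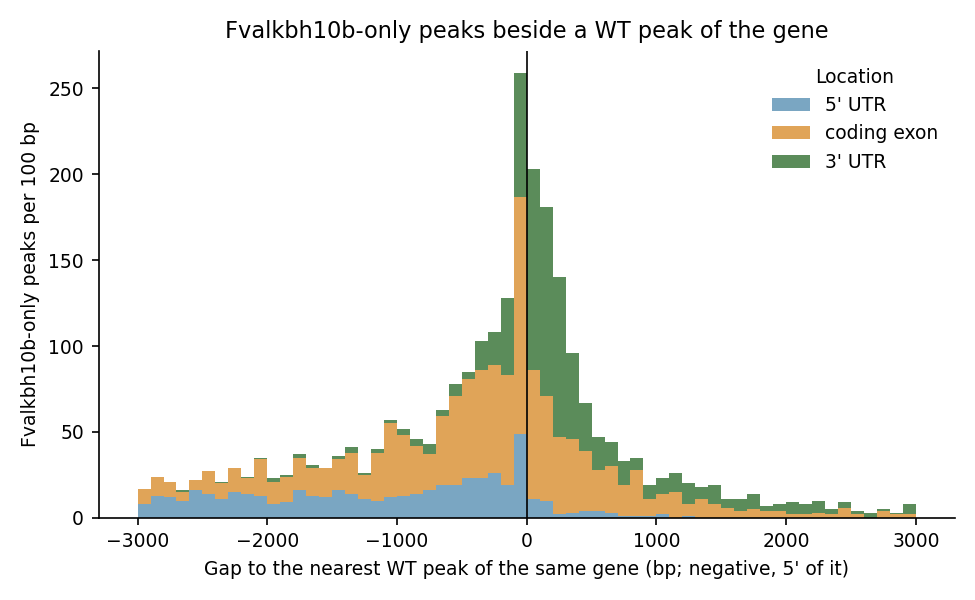
Number of Fvalkbh10b-only peaks per 100 bp by the gap to the nearest WT peak of the same gene, negative where the peak lies on its 5' side, coloured by location; 2632 of the 3048 peaks fall within the 3000 bp shown on each side. Coding exon and 5' UTR peaks make up most of the long tail on the 5' side, and 3' UTR peaks make up much of the 3' side.

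Within a gene the additional peak was usually the weaker one. In the 2283 genes that carried both a Fvalkbh10b-only peak and a shared mutant peak, the median of the strongest Fvalkbh10b-only peak was 1.36 and that of the strongest shared peak 3.04, both from the mutant list. The Fvalkbh10b-only peak was the stronger in 397 of these genes (17.4%). Peaks in genes without a WT peak had higher enrichments than additional peaks, with a median of 1.91 against 1.34. Of them 9.19% lay in 5' UTRs, against 24.3% of the additional peaks. The genes without a WT peak also had less input RNA, with a median of 1.41 against 5.59 FPKM in the mutant. Enrichment and location both varied with input level, as given below, so these contrasts are not separate from it.

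Strand limits a small share of the members. The library kit named in the labels does not mark strand, so reads of overlapping genes on opposite strands cannot be told apart and the strand of a peak follows its gene. Of the 5137 members, 86 (1.67%) overlapped a WT peak assigned to the opposite strand, 66 of them in 3' UTRs. A mutant peak on the opposite strand overlapped 163 members (3.17%), against 6.43% of shared mutant peaks. A further limit is gene assignment: 81 of the 2089 peaks in genes without a WT peak lay within 1000 bp of a WT peak assigned to another gene.

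Few members had an entry in the authors' table of differential peaks. It comes from the same contrast as the choice of members and is given as a description only. In the authors' deposited table, 718 of 5137 members (14.0%) overlapped a listed interval, against 37.9% of the shared mutant peaks. The shared peaks were longer, with a median of 525 bp against 225 bp, and so had more room to overlap an interval. Of the 718, 425 were higher in the mutant at the authors' adjusted p under 0.05, 34 were lower and 259 did not pass. In that table as a whole 48.7% of the entries were called higher and 21.9% lower. The members called higher had a median log2 change of 1.36 in the authors' deposited table and lay in coding exons (182), 3' UTRs (142) and 5' UTRs (101). The 34 called lower had a median of -2.44, although WT had no overlapping peak in its own list.

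Input RNA of the genes was then compared between the genotypes. Genes with a Fvalkbh10b-only peak and no WT peak were low in WT fruit and mostly higher in the mutant. Genes with a WT peak elsewhere had levels near those of all genes. The peaks were called against these same input libraries, so this pattern is not independent of how the genes were chosen. In the 1542 genes of the first kind that the expression table lists, the median level was 1.43, 1.46 and 1.465 FPKM in the Fvalkbh10b libraries, against 0.36, 0.38 and 0.37 FPKM in the WT libraries. The libraries of the genotypes did not overlap. Of the 184 of these genes with at least 5 FPKM in each genotype, 62 were higher and 75 lower (limma adjusted p under 0.05). Of all 8973 genes at that level, 44.9% were higher and 21.1% lower. In the 2463 genes with a WT peak elsewhere the medians were 5.49, 5.53 and 5.68 FPKM in the Fvalkbh10b libraries, against 4.33, 4.41 and 4.41 FPKM in the WT libraries. Over all 21927 genes of the table the library medians were 4.70, 4.69 and 4.86 FPKM in Fvalkbh10b, against 3.48, 3.53 and 3.58 FPKM in WT. In whole fruit, fewer cells of a type and less RNA per cell cannot be told apart.

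The low WT levels can be counted. Of the 1542 genes without a WT peak, 567 (36.8%) averaged under 1 FPKM in the mutant, against 1064 (69.0%) in WT, and 144 were listed at 0 in every WT library. Of the 2463 genes with a WT peak elsewhere, 170 (6.90%) were under 1 FPKM in the mutant, against 408 (16.6%) in WT. For comparison, 848 genes had a WT-only peak and no mutant peak. Of these, 37.3% were under 1 FPKM in the mutant, against 22.6% in WT. The peak lists were called with these input libraries as background, so the input level is not independent of the presence of a peak. The part of the input level in the absence of a WT peak was not tested.

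In 955 of the 1542 genes without a WT peak (61.9%) every Fvalkbh10b library stood above every WT library, and in 151 (9.79%) every one stood below. Over all genes of the table these shares were 43.6% and 16.7%. Of the 1542 genes, 765 averaged at least 1 FPKM over the 6 input libraries and were tested, together with all other such genes, on the log2(FPKM + 1) scale with limma. Of those, 455 were higher and 136 lower in the mutant at an adjusted p under 0.05, where 48.3% of all 15571 genes tested were higher and 19.1% lower. Of the 765, 294 were under 1 FPKM in WT and passed the filter through the mutant libraries, and 15 the other way, so this count supports no difference from other genes. The median log2 change was 0.61, against 0.25 over all genes tested. The median was 0.14 in the 277 genes left by a filter at 5 FPKM and 0.002 in those with at least 5 FPKM in each genotype. After each library was rescaled to one median it was 0.42, against 0.00, and 395 were higher and 170 lower, where 30.8% of all genes were higher and 32.2% lower.

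All 4085 genes of the members together stood closer to the background. The table lists 4005 of them, 3021 of which were tested. Of these, 1527 (50.5%) were higher and 549 (18.2%) lower in the mutant by limma at an adjusted p under 0.05, with a median log2 change of 0.29. After rescaling 1087 (36.0%) were higher and 853 (28.2%) lower. At 2-fold or more on the log2 scale, 596 were higher and 200 lower, which is 19.7% and 6.62%, where 14% and 6.49% of all genes were called. Of the 3021 genes, 505 were under 1 FPKM in WT and passed the filter through the mutant libraries, and 37 the other way, so these counts support no difference from other genes either.

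**Figure D3:**
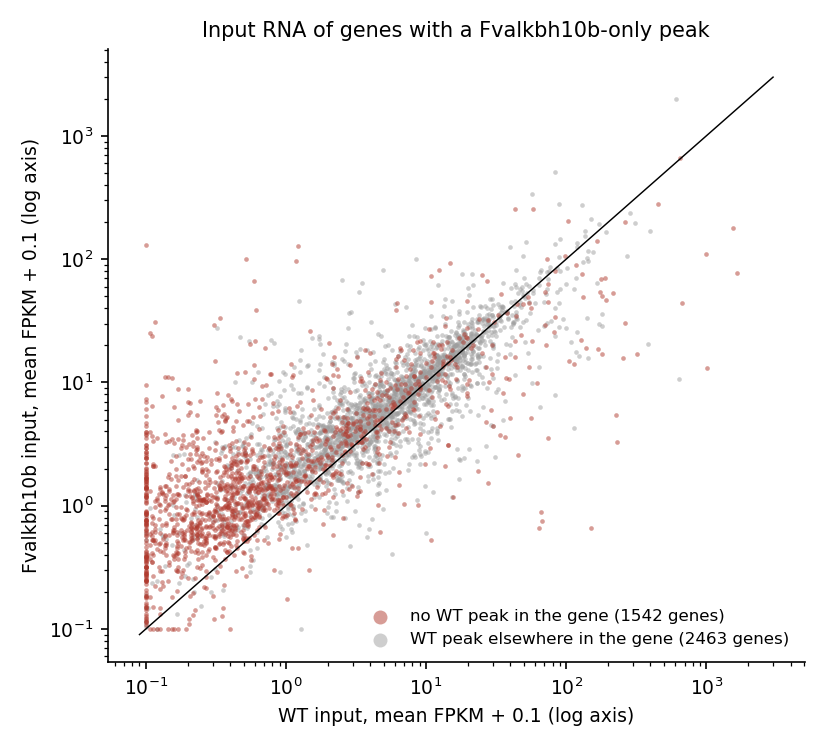
Mean input level of each gene with a Fvalkbh10b-only peak in the mutant (vertical) and in WT (horizontal), as FPKM + 0.1 on log axes, with a line at equal levels. Red points are the 1542 genes without any WT peak, 1064 of them under 1 FPKM in WT; grey points are the 2463 genes with a WT peak elsewhere.

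How often a gene carried a Fvalkbh10b-only peak varied with its RNA level. Of genes at 1 to 5 FPKM in the mutant, 32.6% carried one, against 11.9% below 1 FPKM, 18.9% at 5 to 20, 10.4% at 20 to 100 and 5.76% above. Any mutant peak at all was listed for 21.4% of genes below 1 FPKM, 77.6% at 1 to 5 and 86.8% at 5 to 20. Members in genes under 1 FPKM had the highest median enrichment. Their median was 2.52 in genes under 1 FPKM in the mutant, 1.5 at 1 to 5, 1.29 at 5 to 20, 1.23 at 20 to 100 and 1.3 in the 39 members at 100 FPKM or more. Of the 23 members with an enrichment of at least 6 whose gene is in the table, 20 lay in genes under 1 FPKM. The highest, 9.16, was in a coding exon of a gene described as cytochrome P450 94A2-like (FvH4_2g22190). Enrichment is a ratio over input, so values in genes with little input RNA rest on a small denominator. Location shifted too: 5' UTR peaks were 6.09% of members in genes under 1 FPKM and 33.6% at 20 to 100 FPKM.

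**Figure D4:**
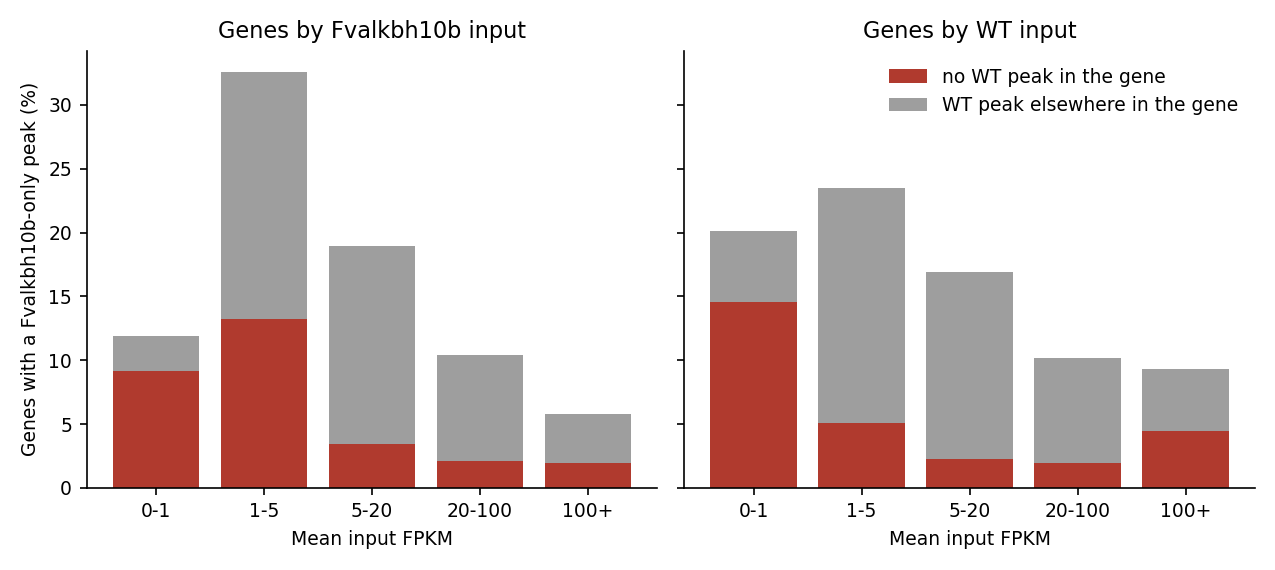
Share of genes (%) with a Fvalkbh10b-only peak by mean input level in the mutant (left) and in WT (right), split into genes without a WT peak (red) and genes with a WT peak elsewhere (grey). By mutant level the share is highest at 1 to 5 FPKM (32.6%), and by WT level the part without a WT peak is highest below 1 FPKM (14.5% of genes).

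In 1218 genes the input RNA averaged at least 5 FPKM in each genotype, so RNA of the gene was present in WT. The levels are per gene, and the coverage of the peak region itself was not measured. These genes held 1401 members, of which 44.0% lay in coding exons, 28.9% in 5' UTRs and 27.1% in 3' UTRs. Their input RNA was higher in the mutant for 470 (38.6%) and lower for 320 (26.3%), where 44.9% and 21.1% of all 8973 genes at that level were called by limma. The balance turned with the scaling: after rescaling 227 were higher and 545 lower, where 23.4% and 40.5% of all genes at that level were called. In 184 of them there was no WT peak at all, and of these 62 were higher and 75 lower, or 38 and 95 after rescaling. The genes named next come from this group, with the strongest peak in each location.

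In the 3' UTR the strongest member with a named protein was in an NADPH-dependent thioredoxin reductase 3 gene (FvH4_6g24270), whose enzyme passes electrons to thioredoxins. The 250 bp peak at chromosome 6, 18284650 to 18284899, minus strand, had an enrichment of 5.81, lay 150 bp from a WT peak of the gene and overlapped a mutant peak on the opposite strand by 17 bp. Input levels were 8.39, 7.85 and 7.16 FPKM in Fvalkbh10b, against 6.78, 6.94 and 6.24 FPKM in WT (limma adjusted p = 0.0889). The mutant libraries were all above the WT libraries, but the difference did not pass.

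A pentatricopeptide repeat gene (FvH4_3g43180), of a family that binds organelle RNA, had the widest gap to a WT peak among the 6 leading 3' UTR members. Its 450 bp member (chromosome 3, 36058060 to 36058509, minus strand) had an enrichment of 4.23 and lay 3754 bp from the single WT peak of the gene. The authors' deposited table lists an overlapping differential interval with a log2 change of 4.37. Input RNA was 11.17, 10.08 and 10.84 FPKM in Fvalkbh10b, against 9.60, 9.21 and 11.53 FPKM in WT (adjusted p = 0.492 by limma), so the libraries overlapped. A small ubiquitin-related modifier 1 gene (FvH4_3g23390), whose protein is attached to other proteins, had a member of enrichment 4.69 lying 125 bp from its WT peak. It was at 80.9 ± 2.49 FPKM in Fvalkbh10b and 43.9 ± 3.57 FPKM in WT (SD, n = 3 each; limma adjusted p = 9.66e-07). WD repeat-containing protein DWA2 (FvH4_2g37550), in Arabidopsis a substrate receptor of a ubiquitin ligase that dampens abscisic acid signalling, had a member of 4.79. It stood at 10.4 ± 0.458 FPKM in Fvalkbh10b and 5.89 ± 0.831 FPKM in WT (SD, n = 3 each; limma adjusted p = 1.85e-04). Regulatory subunit 3 of phosphatase 6 (FvH4_3g32040; member 4.89) rose by 0.27 on the log2 scale, and a protein-serine/threonine phosphatase gene (FvH4_2g34570; member 4.54) fell by 0.49. Their members lay 100 bp and 75 bp, in that order, from a WT peak of the same gene.

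In coding exons the leading member lay in an endo-1,3;1,4-beta-D-glucanase-like gene (FvH4_4g14311), of a family that cuts cell wall glucans. The 765 bp peak (chromosome 4, 17931587 to 17932351, minus strand) had an enrichment of 3.11, and the nearest WT peak was 2506 bp away. The gene stood at 29.60, 30.15 and 30.06 FPKM in Fvalkbh10b, against 26.34, 28.40 and 28.06 FPKM in WT, without overlap and without passing the test (limma adjusted p = 0.0909). The interval in the authors' deposited table changed by 1.29 on the log2 scale and did not pass there (authors' adjusted p = 0.06).

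Among the leading coding exon members, a pair of regulatory genes had no WT peak. A DEFECTIVE IN MERISTEM SILENCING 3-like gene (FvH4_7g32260), in Arabidopsis a factor of RNA-directed DNA methylation, carried a single 308 bp mutant peak of enrichment 2.56 at chromosome 7, 23209191 to 23209498, minus strand. In the input it had 9.25, 8.74 and 8.07 FPKM in Fvalkbh10b, against 6.47, 6.71 and 4.99 FPKM in WT. All mutant values were above all WT values, and the log2 change was 0.46 ± 0.12 (SE, n = 3 each; limma adjusted p = 0.00562). The probable transcription factor KAN4 (FvH4_1g15470), of the KANADI family that sets organ polarity in Arabidopsis, carried a coding exon member of 2.53 and a 3' UTR member of 3.62, and no other mutant peak. Input RNA stood at 12.38, 11.38 and 12.23 FPKM in Fvalkbh10b, against 8.47, 10.31 and 8.11 FPKM in WT (limma adjusted p = 0.00585). Again the genotypes did not overlap. The largest subunit of RNA polymerase II (FvH4_1g11070; coding exon member 3.01) and a GABA transporter 1-like gene (FvH4_7g06340; 2.52) each had a WT peak 125 bp away.

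In the 5' UTR the leading member was in a mitochondrial 2-oxoglutarate dehydrogenase gene (FvH4_7g21770), an enzyme of the citric acid cycle. Its 819 bp peak (chromosome 7, 17329149 to 17329967, plus strand) had an enrichment of 3.98, lay 3491 bp from the WT peak of the gene and changed by 3.13 on the log2 scale in the authors' deposited table. The gene spans 17320957 to 17334727, so this peak, annotated as 5' UTR, lay well inside the span and not near its 5' end. Input RNA was 44.90, 44.78 and 42.09 FPKM in Fvalkbh10b, against 62.52, 58.36 and 59.40 FPKM in WT. Every mutant value lay below every WT value (log2 change -0.44 ± 0.05, SE, n = 3 each; limma adjusted p = 3.22e-05). Aldehyde dehydrogenase family 7 member A1 (FvH4_1g08890), of an enzyme family that oxidises reactive aldehydes, had a 5' UTR member of 2.51. The change there was 2.29 in the authors' deposited table. Its RNA was lower in the mutant, at 198 ± 2.04 FPKM in Fvalkbh10b and 312 ± 3.03 FPKM in WT (SD, n = 3 each; limma adjusted p = 6.75e-08).

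Other 5' UTR members differed in the direction of their input RNA. A MADS-box protein CMB1-like gene (FvH4_5g13510), a transcription factor of a family that controls flower and fruit identity, had a member of 2.66 and changed by 1.12 in the authors' deposited table. That member (chromosome 5, 7630881 to 7631255, minus strand) also lay well inside the gene span, 7627138 to 7634218. The libraries gave 46.94, 45.55 and 48.75 FPKM in Fvalkbh10b, against 11.65, 14.91 and 13.82 FPKM in WT. The gap between genotypes exceeded the spread of the replicates (log2 change 1.74 ± 0.08, SE, n = 3 each; limma adjusted p = 5.67e-08). Dihydropyrimidine dehydrogenase (FvH4_5g17680), which begins pyrimidine breakdown, had a member of 2.70 and fell by 0.66. A 4-coumarate--CoA ligase-like 9 gene (FvH4_5g07750; member 2.57) stood at 14.0 ± 1.52 FPKM in Fvalkbh10b and 14.0 ± 0.631 FPKM in WT (SD, n = 3 each; limma adjusted p = 0.994).

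Among genes without a WT peak and with at least 1 FPKM in each genotype, the strongest member was in the 5' UTR of a trifunctional UDP-glucose 4,6-dehydratase gene (FvH4_6g38000), of an enzyme type that makes UDP-rhamnose. The 375 bp peak had an enrichment of 4.17 (chromosome 6, 30087209 to 30087583, minus strand). Input RNA was 4.53, 5.04 and 3.63 FPKM in Fvalkbh10b, against 3.84, 3.94 and 4.88 FPKM in WT, so the libraries overlapped (limma adjusted p = 0.779). The other strong members of this kind were in genes whose RNA was lower in the mutant. An amino acid transporter gene (FvH4_4g28960; 3' UTR member 4.0) had 1.01, 1.15 and 1.10 FPKM in Fvalkbh10b, against 15.22, 16.55 and 14.27 FPKM in WT (limma adjusted p = 5.1e-09). That member overlapped a WT peak assigned to the opposite strand by 313 bp and a mutant peak on that strand over its whole 325 bp, so reads of the strands cannot be told apart there. A diphthamide biosynthesis protein 7 homolog (FvH4_5g05540; 3' UTR member 3.67), needed to modify an elongation factor, stood at 1.82 ± 0.403 FPKM in Fvalkbh10b and 23.4 ± 1.55 FPKM in WT (SD, n = 3 each; limma adjusted p = 8.45e-09).

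Some members lay in genes whose RNA differed most between the genotypes. Among genes with a named protein, the largest rise was in a gene for a proline-rich protein (FvH4_1g02570), with 104.20, 98.92 and 96.19 FPKM in Fvalkbh10b, against 0.08, 0.14 and 1.04 FPKM in WT. Its 3' UTR member had an enrichment of 2.30. A 21 kDa protein gene (FvH4_1g09220) was at 127 ± 5.04 FPKM in Fvalkbh10b and 1.12 ± 0.477 FPKM in WT (SD, n = 3 each). Phospholipase A1-Igamma1 (FvH4_2g22500), which releases fatty acids from lipids, was at 65.9 ± 2.66 FPKM in Fvalkbh10b and 0.487 ± 0.158 FPKM in WT (SD, n = 3 each). Flavonol synthase 3-like (FvH4_5g20432), of the flavonol branch of flavonoid synthesis, rose by 5.55 on the log2 scale and had a coding exon member of 1.12. None of these genes had a WT peak (limma adjusted p at most 3.24e-09).

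The opposite pattern also occurred. Malonyl-CoA decarboxylase (FvH4_3g01470), which turns malonyl-CoA into acetyl-CoA, was at 13.38, 12.82 and 12.85 FPKM in Fvalkbh10b, against 992.69, 1030.58 and 1001.55 FPKM in WT. It had a 3' UTR member of 2.74 and no WT peak, although its RNA was abundant in WT. A glutathione S-transferase F11-like gene (FvH4_1g27460) had 0.46, 0.87 and 0.35 FPKM in Fvalkbh10b, against 156.40, 147.97 and 150.16 FPKM in WT, with a coding exon member of 1.84. A short-chain dehydrogenase reductase 2a gene (FvH4_6g53780) was at 10.5 ± 0.501 FPKM in Fvalkbh10b and 639 ± 20.7 FPKM in WT (SD, n = 3 each), with WT peaks of at most 0.76 in enrichment. An auxin-binding protein ABP19a-like gene (FvH4_1g18170) fell by 5.41 on the log2 scale. For these 4 genes the limma adjusted p was at most 1.48e-09, and close gene copies may share their reads.

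**Figure D5:**
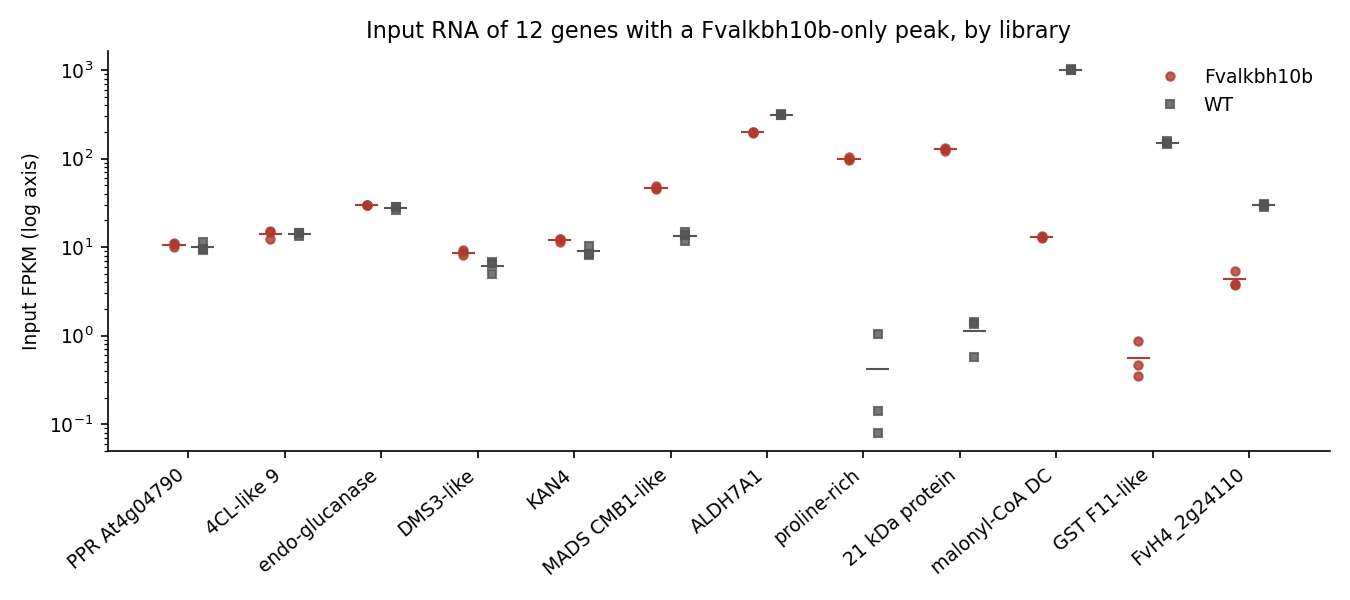
Input FPKM (log axis) of 12 genes with a Fvalkbh10b-only peak, with a point per library and a line at the mean of each genotype, Fvalkbh10b left of WT (n = 3 each). The genotypes overlap for the pentatricopeptide repeat gene and 4-coumarate--CoA ligase-like 9, and stand far apart for the proline-rich protein, 21 kDa protein, malonyl-CoA decarboxylase and glutathione S-transferase genes.

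Members were usually single in their gene. Of the 4085 genes, 3270 held 1 Fvalkbh10b-only peak, 634 held 2, 148 held 3 and 33 held 4 or more. The largest number, 12, was in a gene described as titin (FvH4_6g51240), where 11 coding exon peaks of enrichment 1.22 to 3.69 and a 3' UTR peak of 2.86 ran between 38012031 and 38027629 on chromosome 6, plus strand. WT had 2 peaks in the gene, of 1.34 and 1.40. In the input it stood at 3.06, 2.43 and 3.15 FPKM in Fvalkbh10b, against 0.36, 0.10 and 0.33 FPKM in WT. These levels did not overlap (log2 change 1.62 ± 0.15, SE, n = 3 each; limma adjusted p = 8.18e-06). A clustered mitochondria protein homolog (FvH4_3g24640), of a family that spaces mitochondria in the cell, held 7 Fvalkbh10b-only peaks beside 7 WT peaks. Its RNA rose by 0.68 on the log2 scale (limma adjusted p = 5.2e-04). The uncharacterized gene FvH4_5g02970 held 6, all the mutant peaks it had, and 1 WT peak that abutted its 3' UTR member. Peaks within a gene share transcripts and libraries and are not separate observations of a condition.

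Gene families differed in how often they carried a Fvalkbh10b-only peak. Of all 21927 genes with an input value, 18.3% did. Pentatricopeptide repeat genes were at 35.6% (196 of 550), immune receptor genes, whose proteins sense pathogen molecules, at 32.0% (105 of 328), and transcription factors at 25.4% (105 of 414). Chromatin genes were at 22.1% (29 of 131), RNA processing genes at 21.7% (40 of 184) and receptor kinases at 20.5% (120 of 584). Photosynthesis genes (17.8%, 8 of 45), abscisic acid genes (16.9%, 15 of 89) and flavonoid genes (15.7%, 13 of 83) were near the overall share. Ethylene (13.2%, 15 of 114), cell wall (12.1%, 21 of 173) and auxin genes (11.7%, 12 of 103) were below it, and cytosolic ribosomal protein genes had the lowest share, 2.96% (5 of 169). These families also differ in RNA level, which moves with the share: the median in the mutant was 1.35 FPKM for pentatricopeptide repeat genes and 107 FPKM for ribosomal protein genes. Among genes at 1 to 5 FPKM in the mutant, 39.6% of pentatricopeptide repeat genes, 46.9% of immune receptors, 41.2% of transcription factors and 40.9% of receptor kinases carried a member, against 32.6% of all genes at that level. Cell wall genes, below the overall share when all levels are counted, were above it here with 39.1% (9 of 23). RNA processing genes were at 36.0% (9 of 25), flavonoid genes at 35.3% (6 of 17), chromatin genes at 34.5% (10 of 29) and ethylene genes at 31.8% (7 of 22). Abscisic acid genes were at 27.8% (5 of 18), auxin genes at 17.6% (3 of 17), ribosomal protein genes at 2 of 8, photosynthesis genes at 2 of 4 and the m6A machinery at 0 of 8. Over all levels, 3503 of all 21927 genes carried a WT-only peak, and families differed here too. That share was above the Fvalkbh10b-only share for photosynthesis (31.1%), chromatin (26.7%), ethylene (17.5%), ribosomal protein (7.10%) and m6A machinery genes (34.5%). It was equal for RNA processing (21.7%) and flavonoid genes (15.7%). It was below for the other families, including pentatricopeptide repeat genes (17.6%), immune receptors (21.95%), transcription factors (14.0%) and receptor kinases (15.8%). No test was made of these shares.

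Within the pentatricopeptide repeat family, 183 of 278 members lay in coding exons and 96 of the 196 genes had no WT peak. The highest enrichment, 7.22, was in a coding exon of FvH4_4g03820, a gene at 0.29, 0.40 and 0.66 FPKM in Fvalkbh10b, against 0.31, 0.15 and 0.03 FPKM in WT. Of the 286 family genes tested for input RNA, with or without a peak, 153 (53.5%) were higher and 10 (3.5%) lower by limma, where 48.3% and 19.1% of all genes tested were called. After rescaling 94 (32.9%) were higher and 33 (11.5%) lower, where 30.8% and 32.2% of all genes were called, so the share higher was near that of all genes. In the immune receptor family, 121 of 171 members lay in coding exons, 43 of the 105 genes had no WT peak, and FvH4_4g25750, an RPP13-like gene, held 5 Fvalkbh10b-only peaks. Levels were 2.53, 1.77 and 2.36 FPKM in Fvalkbh10b, against 1.45, 1.08 and 0.88 FPKM in WT (limma adjusted p = 0.00771). The 183 immune receptor genes tested gave 107 (58.5%) higher and 20 (10.9%) lower, against 48.3% and 19.1% of all genes. After rescaling it was 77 (42.1%) and 26 (14.2%), against 30.8% and 32.2% of all genes.

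Transcription factor members lay in coding exons (61), 3' UTRs (52) and 5' UTRs (28), in 105 genes of which 60 had no WT peak. The strongest were in genes barely detected in the input. A bHLH91-like gene (FvH4_7g07050; 3' UTR member 5.97) had 0.28, 0.16 and 0.63 FPKM in Fvalkbh10b, against 0.18, 0.32 and 0.14 FPKM in WT. MADS-box protein AGL24 (FvH4_5g35401; 5' UTR member 5.73) had 0.33, 0.34 and 0.34 FPKM in Fvalkbh10b, against 0.05, 0.07 and 0.14 FPKM in WT. A weaker 3' UTR member, of 2.74, was in AINTEGUMENTA (FvH4_2g32640), which promotes organ growth in Arabidopsis and was named through the ethylene list. Its RNA was at 2.45, 1.96 and 2.18 FPKM in Fvalkbh10b and listed at 0.42, 0.09 and 0 FPKM in WT. The mutant had more RNA of 136 (57.4%) and less of 60 (25.3%) of the 237 transcription factors tested, where the shares over all genes were 48.3% and 19.1%. After rescaling it was 114 (48.1%) and 78 (32.9%), where they were 30.8% and 32.2%.

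Receptor kinase members numbered 166, 97 of them in coding exons. The kinase gene FvH4_3g17840 carried 3, of which the 5' UTR member reached 4.65. In the input it reached 13.02, 13.04 and 13.40 FPKM in Fvalkbh10b, against 1.08, 0.91 and 1.13 FPKM in WT, a log2 change of 2.80 ± 0.10 (SE, n = 3 each; limma adjusted p = 7.53e-09). Of 285 receptor kinases tested, 164 (57.5%) were higher and 51 (17.9%) lower, beside 48.3% and 19.1% of all genes. Rescaled, 137 (48.1%) were higher and 73 (25.6%) lower, beside 30.8% and 32.2%.

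Hormone and fruit quality genes added single cases. Protein phosphatase 2C 57 (FvH4_7g32030), which the abscisic acid word pattern took in by its family name, had a 3' UTR member of 3.64 and no WT peak. The authors' deposited table lists a log2 change of 2.43 there. Its RNA stood at 1.57, 1.76 and 1.28 FPKM in Fvalkbh10b, against 0.20, 0.29 and 0.51 FPKM in WT, and was below the filter of the test. Auxin transporter-like protein 2 (FvH4_2g01570), of a family of auxin importers, had a 3' UTR member of 2.42 and rose by 1.58 on the log2 scale. Beta-galactosidase 8 (FvH4_3g32630), of an enzyme family that trims cell wall galactans, had a 100 bp 3' UTR member of 3.26, lying 150 bp from its WT peak. It stood at 12.2 ± 0.687 FPKM in Fvalkbh10b and 7.79 ± 0.454 FPKM in WT (SD, n = 3 each; limma adjusted p = 1.72e-04). An isoflavone reductase homolog (FvH4_2g09120; 3' UTR member 2.89) was at 5.57, 5.6 and 4.06 FPKM in Fvalkbh10b, against 54.11, 60.40 and 54.61 FPKM in WT.

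The photosystem II 22 kDa protein gene (FvH4_2g26970), whose protein helps to shed excess light energy, had a 924 bp 3' UTR member of 3.62. The gene was at 4.47, 6.15 and 5.04 FPKM in Fvalkbh10b and listed at 0 in the 3 WT libraries. A WT peak assigned to another gene lay 318 bp from this member on the same strand, so the limit of gene assignment applies. Of the 5 ribosomal protein genes with a member, the strongest was L31-like (FvH4_7g00730; 4.63), listed at 1.5, 0 and 0 FPKM in Fvalkbh10b, against 0.08, 0 and 0 FPKM in WT. This copy was at 0 in all but 1 library of each genotype. Among chromatin genes the histone methyltransferase gene SUVR4 (FvH4_6g01620) held 3 Fvalkbh10b-only peaks and no WT peak. The interval overlapping its strongest, of 4.43, had a log2 change of -2.72 in the authors' deposited table and did not pass there (authors' adjusted p = 0.09).

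Of the 29 genes in the list of m6A machinery, 2 (6.90%) carried a Fvalkbh10b-only peak, against 18.3% of all genes, and 10 (34.5%) carried a WT-only peak, against 3503 of all 21927 genes. Methyltransferase-like protein 1 (FvH4_1g22240), the annotation name of the MTB-type subunit of the writer complex in Arabidopsis, had a 125 bp 5' UTR member of 1.86 beside a pair of stronger peaks shared with WT. Its input RNA was 18.33, 17.68 and 18.58 FPKM in Fvalkbh10b, against 15.63, 15.94 and 14.97 FPKM in WT (log2 change 0.22 ± 0.06, SE, n = 3 each; limma adjusted p = 0.0127). The other, a probable tRNA N6-adenosine threonylcarbamoyltransferase (FvH4_7g04970), acts on tRNA and entered through its wording; its coding exon member had 0.98. The single gene annotated with RNA N6-methyladenosine dioxygenase activity, FvH4_2g24110, had a 519 bp coding exon member of 1.08 (chromosome 2, 19704780 to 19705298, plus strand). Its strongest mutant peak, in the 3' UTR, was shared with WT. The input RNA of this gene was 3.75, 3.84 and 5.34 FPKM in Fvalkbh10b, against 30.27, 28.53 and 31.03 FPKM in WT, so the additional peak stood on a transcript that was lower in the mutant. The sources used here do not say whether it is the mutated gene.

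Sums over lists of tissue marker genes differed between the genotypes beside these results. The lists were word patterns on gene descriptions, and their tissue was not checked in these data. The receptacle list took MADS-box, expansin, polygalacturonase, pectate lyase and anthocyanidin glucosyltransferase genes. Not all of its genes followed the sum, as the MADS-box CMB1-like gene above was higher in the mutant. Summed FPKM of 107 receptacle genes lay between 2063 and 2107 in the Fvalkbh10b libraries, against 10691 to 10988 in WT. Of these genes 50 averaged at least 1 FPKM in Fvalkbh10b and 46 in WT, 16 were listed at 0 in Fvalkbh10b and 19 in WT, and 19 carried a Fvalkbh10b-only peak. Of 37 green tissue genes the sums were 2818 to 3013 in Fvalkbh10b and 288 to 304 in WT, with 1 at 0 in Fvalkbh10b, 5 in WT and 7 with a Fvalkbh10b-only peak. Achene genes (35) summed to 470 to 503 in Fvalkbh10b and 707 to 722 in WT, with 2 at 0 in each genotype and 8 with a Fvalkbh10b-only peak. Lignified vascular genes (43) summed to 574 to 599 in Fvalkbh10b and 318 to 324 in WT, with 5 at 0 in Fvalkbh10b, 9 in WT and 12 with a Fvalkbh10b-only peak. The part of tissue makeup in the absence of WT peaks was not tested. Summed FPKM over all genes was 500726 to 522590 in Fvalkbh10b and 467174 to 469664 in WT, and Pearson correlations of log2 values across genes were 0.988 to 0.990 within the mutant and 0.989 to 0.990 within WT, against 0.808 to 0.812 between genotypes.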

How the data were processed

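Per the labels' protocols, mRNA of fruit was fragmented, part was precipitated with an anti-m6A antibody, and input and IP libraries were sequenced in pairs. FastQC, HISAT2 and StringTie are named in the submitters' processing notes, without versions. The sources used here name no genome build, annotation or peak caller. The authors deposited input FPKM per gene and library, rounded to 2 decimals; no read counts are given, so the depth is unknown. The peak tables hold the log2 ratio and p-value of each peak as deposited by the authors, and the differential table a log2 change and adjusted p-value. Deposited starts count from 0 and were raised by 1.

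Overlaps were computed in Python 3.11.15 with pandas 2.3.3. Genes averaging 1 FPKM or more were fitted in R 4.3.3 with limma 3.58.1. The values were log2(FPKM + 1), the model held genotype alone, the variance followed a trend on the mean, and p-values were adjusted by Benjamini-Hochberg over all genes tested. Low genes change by more than this scale shows. The fit was tested on simulated data. Genes were named by rule: the 6 strongest peaks per location in genes with a named protein and 5 FPKM or more in each genotype, the 4 strongest in genes without a WT peak, the 4 largest rises and 4 largest falls of input RNA, the 3 genes with most peaks, and up to 2 per word-pattern list. The text gives a selection, and FvH4_2g22190 was added after its value was seen. Members and lists were chosen with earlier results of these data known. No sequence of these regions is shown, as no genome was used here. Alternatives covered the pseudocount, filter, scaling, replicate block, left-out libraries, overlap rule, strand and enrichment minimum.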

Additional observations from a re-analysis of the deposited data

How the results depend on the processing

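Leaving out any 1 of the 6 input libraries gave 1413 to 1458 higher and 515 to 536 lower genes among those with a Fvalkbh10b-only peak. With the replicate block the counts were 1488 higher and 544 lower, and the block moved no count by over 1.5 times. Same-numbered libraries did not vary together (correlations of deviations from -0.03 to 0.04), so the numbers were not taken as pairs. Rescaled to one median, 4800 of all genes were higher and 5011 lower, and 853 genes with a Fvalkbh10b-only peak were lower; with quantile normalization these were 4915, 4596 and 867, and 966 genes with a Fvalkbh10b-only peak were higher. At 2-fold or more, 2173 and 1011 of all genes, 596 and 200 of those with a Fvalkbh10b-only peak, and 300 and 75 of those without a WT peak were higher and lower. A filter at 5 FPKM left 690 higher of 1548 genes with a Fvalkbh10b-only peak and 124 of 277 without a WT peak. Under that filter 5058 of all 10492 genes tested were higher. No filter gave 910 of 1542 without a WT peak, where 8616 of all 21902 genes were higher. These counts changed with the number of genes tested. The median log2 change of genes with a Fvalkbh10b-only peak, 0.29, became 0.36 with a pseudocount of 0.1, 0.33 without the filter, 0.15 with the filter at 5 FPKM, 0.0678 after rescaling and 0.0066 with quantile normalization. For genes without a WT peak, a median added after the data were seen, 0.61 became 0.87, 0.48, 0.14, 0.42 and 0.29 under the same settings in that order.

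Calls in genes of at least 5 FPKM in each genotype were added after the data were seen. The number of Fvalkbh10b-only peaks was 4468 to 6432 under the other overlap, strand and enrichment rules, and 1401 in genes of at least 5 FPKM in each genotype, where 3' UTRs, coding exons and 5' UTRs held 27.1%, 44.0% and 28.9%. Requiring 50% overlap gave 34.3% in 3' UTRs and 47.7% in coding exons; counting WT peaks within 100 bp as shared gave 29.5% in 3' UTRs. Enrichment of at least 1 in both lists gave 48.6% in coding exons and 20.5% in 5' UTRs, and in the mutant list alone 34.4% in 3' UTRs and 47.3% in coding exons. Coding exons held the largest share under each of these. Beyond the settings' own construction the cause of these shifts was not tested. Since depth is unknown and IP values per library were not analysed here, the spread of a peak between replicates is not known.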
